A study of Rattus norvegicus with 54 samples.

Results

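Interferon-stimulated genes are the transcripts that a cell switches on after an interferon binds its receptor. A set of 37 of them was followed through the left ventricle of rats 1 week after myocardial infarction (MI), with and without a transplanted cell sheet. The members were listed by symbol, by what they are known to do, but earlier results of these data were known when they were chosen. All 37 were found among the 40319 genes of the count tables. They comprised 4 transcription factors, 4 sensors of foreign nucleic acid, 16 antiviral effectors, 7 genes of the ISG15, ubiquitin and ADP-ribose system, 3 guanylate-binding proteins and 3 genes of antigen processing.

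Bulk RNA sequencing had been performed on polyA RNA of 54 libraries from 18 female athymic rats of the F344/NJcl-rnu/rnu strain, 8 weeks old when obtained, which carry no functional thymus and so few mature T cells. There were 6 rats in each of 3 groups: sham surgery with no treatment, MI by ligation of the left anterior descending coronary artery with no treatment, and the same ligation followed by a bi-level cell sheet laid on the heart (MI+Cell Sheet). The sheet joined a layer of human endothelial progenitor cells to a layer of smooth muscle cells made from human mesenchymal stem cells, so the treated hearts also held human cells, while reads were counted on the rat genome alone. From each heart the infarct zone in the anterior wall, the border zone and the remote zone were sampled, and sham hearts were cut at the same positions, which gave 9 groups of 6 libraries. The labels number the libraries of a group as technical replicates, whereas the study describes separate animals. The p-values below measure the spread between these samples.

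Interferons are secreted proteins through which infected or damaged cells and lymphocytes warn their neighbours. Type I interferons act through the kinases Jak1 and Tyk2 on a complex that holds Stat2 and Irf9 and binds a DNA element called the interferon-stimulated response element (ISRE), and interferon gamma acts through Jak1 and Jak2 on factors that bind the gamma-activated site (GAS). In the infarcted heart, nucleic acids of dying cells and the macrophages that take them up are known sources of an interferon response.

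Promoters of the members were examined for both elements, because the members described below differ in the interferon they are best known to answer. RefSeq promoter windows (assembly GRCr8, 300 bases around each annotated start) were matched by symbol for 28 of the 37 members. The ISRE core, spelled as GAAA, any 2 bases and GAAA again and searched on both strands, was present in 18 of the 28 windows (64.3%) and in 3.92% of 33469 windows of the same length over all genes. The GAS spelling TTCNNNGAA was present in 7 of the 28 (25%) and in 8.87% of all windows. The 180 bases before the start are printed here, 5′ to 3′ on the gene's own strand and in GRCr8 coordinates, for 10 members. All 10 hold a match, so this choice does not show how often the called members do. The windows of Stat2, Parp9, Cmpk2, Herc6, Trim25, Mx1, Oasl and Psmb9 held neither spelling. Every match to either spelling on either strand is in capitals.
Gbp2 (chr2:234005547-234005726, plus strand): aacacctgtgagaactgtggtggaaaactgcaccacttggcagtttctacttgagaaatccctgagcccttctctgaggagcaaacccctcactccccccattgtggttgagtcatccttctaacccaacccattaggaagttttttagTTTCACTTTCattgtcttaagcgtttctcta
Gbp5 (chr2:233910819-233910998, plus strand): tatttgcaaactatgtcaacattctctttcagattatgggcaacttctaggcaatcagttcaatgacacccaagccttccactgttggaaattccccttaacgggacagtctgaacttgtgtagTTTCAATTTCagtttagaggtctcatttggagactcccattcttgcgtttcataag
Tap1 (chr20:4668544-4668723, minus strand): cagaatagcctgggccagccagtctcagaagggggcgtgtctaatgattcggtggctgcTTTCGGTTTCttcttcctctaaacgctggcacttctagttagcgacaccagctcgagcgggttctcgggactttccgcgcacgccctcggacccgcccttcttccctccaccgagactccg
Irf1 (chr10:38417755-38417934, plus strand): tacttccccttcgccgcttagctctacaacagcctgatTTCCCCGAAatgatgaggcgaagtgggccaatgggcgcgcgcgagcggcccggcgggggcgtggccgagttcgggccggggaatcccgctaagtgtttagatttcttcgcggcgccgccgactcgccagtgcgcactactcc
Irf9 (chr15:33065656-33065835, plus strand): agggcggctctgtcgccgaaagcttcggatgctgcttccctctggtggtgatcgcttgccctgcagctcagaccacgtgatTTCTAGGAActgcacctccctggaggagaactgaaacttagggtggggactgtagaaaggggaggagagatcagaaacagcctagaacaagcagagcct
Parp14 (chr11:78407954-78408133, plus strand): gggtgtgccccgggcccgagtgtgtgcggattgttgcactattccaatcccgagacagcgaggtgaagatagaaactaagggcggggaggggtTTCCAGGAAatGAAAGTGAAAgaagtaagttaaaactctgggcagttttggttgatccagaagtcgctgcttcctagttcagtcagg
Irf7 (chr1:205800024-205800203, minus strand): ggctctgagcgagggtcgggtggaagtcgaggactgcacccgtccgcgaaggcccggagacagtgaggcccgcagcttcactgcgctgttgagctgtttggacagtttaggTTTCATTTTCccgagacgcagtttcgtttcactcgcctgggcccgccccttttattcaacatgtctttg
Rsad2 (chr6:48788121-48788300, minus strand): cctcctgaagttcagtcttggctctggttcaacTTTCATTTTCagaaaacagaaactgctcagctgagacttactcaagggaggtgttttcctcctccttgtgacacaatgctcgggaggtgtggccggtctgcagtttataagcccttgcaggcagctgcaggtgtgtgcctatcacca
Ifit3 (chr1:241527146-241527325, plus strand): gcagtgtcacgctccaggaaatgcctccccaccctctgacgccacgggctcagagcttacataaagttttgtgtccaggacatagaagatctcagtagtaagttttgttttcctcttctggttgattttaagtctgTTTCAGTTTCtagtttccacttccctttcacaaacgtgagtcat
Ifi27 (chr6:128355132-128355311, plus strand): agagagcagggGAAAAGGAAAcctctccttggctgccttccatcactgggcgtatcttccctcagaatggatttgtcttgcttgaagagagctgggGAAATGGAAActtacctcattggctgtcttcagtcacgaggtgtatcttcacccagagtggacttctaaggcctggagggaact
In the Gbp2 window the ISRE core began at position -31 with the annotated start as 0, and in those of Gbp5 and Ifit3 at -56 and -44. Only GAS matches stood in the Irf1 and Irf9 stretches, and Parp14 held a GAS match and an ISRE core 2 bases apart. These are matches of letters, not measured binding. Isg15, Oas2, Ifit2, Usp18, Dhx58, Mx2, Ddx58, Ifit1 and Zbp1 had no window to match.

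The libraries held between 12699204 and 23397754 counts on genes. A level is expressed in CPM, the count of a gene scaled to its library with factors from the trimmed mean of M-values (TMM) over the 54 libraries, and differences as log2 fold changes ± SE from edgeR's quasi-likelihood test, and p-values carry a Benjamini-Hochberg adjustment over all genes tested. An adjusted p below 0.05 counts as called. CPM takes no account of transcript length and is not compared between genes. Ifit1, at most 8.08 CPM in any library, passed the filter on low counts in the cell sheet versus MI comparison of the border zone and in none of the other comparisons within a zone. Reads of near-identical copies (Mx1 and Mx2, and the Oas, Ifit and Gbp families) may have been split or dropped during counting, so values of those members are uncertain in that respect.

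The library set of 1 control animal stood apart and has to be described before any comparison. Sham replicate 5 was above all other 5 sham animals for 32 of the 37 members in the infarct position, 31 in the border position and 30 in the remote position. The share of all genes for which this animal was highest was not computed. These counts alone therefore do not set the members apart from other genes. The mean log2 level of the members was 6.27, 6.31 and 6.19 in the 3 libraries of this animal, against at most 4.57, 5.05 and 4.76 in the other sham animals. The excess was largest for antigen processing (Psmb8 and Psmb9, catalytic subunits of the immunoproteasome, and Tap1, a peptide transporter), with a median of 15.6-fold over the median of the other sham animals in the infarct position, and for the guanylate-binding proteins, GTPases that attack vacuoles of microbes, with a median of 12.4-fold.

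Gbp2 measured 1043, 1072 and 929.6 CPM in the infarct, border and remote libraries of this animal, against 43.0 to 60.7, 43.6 to 65.8 and 40.3 to 67.5 CPM in the other sham animals. Zbp1, a sensor of Z-form nucleic acid that can trigger necroptosis, measured 29.5, 32.1 and 27.5 CPM against at most 1.43 CPM in any other sham library. Antiviral effectors differed least, with a median of 2.48-fold, and Ddx58 (the RNA sensor RIG-I) was within the range of the other sham animals in the infarct position. The shift was therefore uneven across roles. Rsad2 (viperin, which makes a chain-terminating nucleotide) was 1.87-fold over the others' median there.

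**Figure D1:**
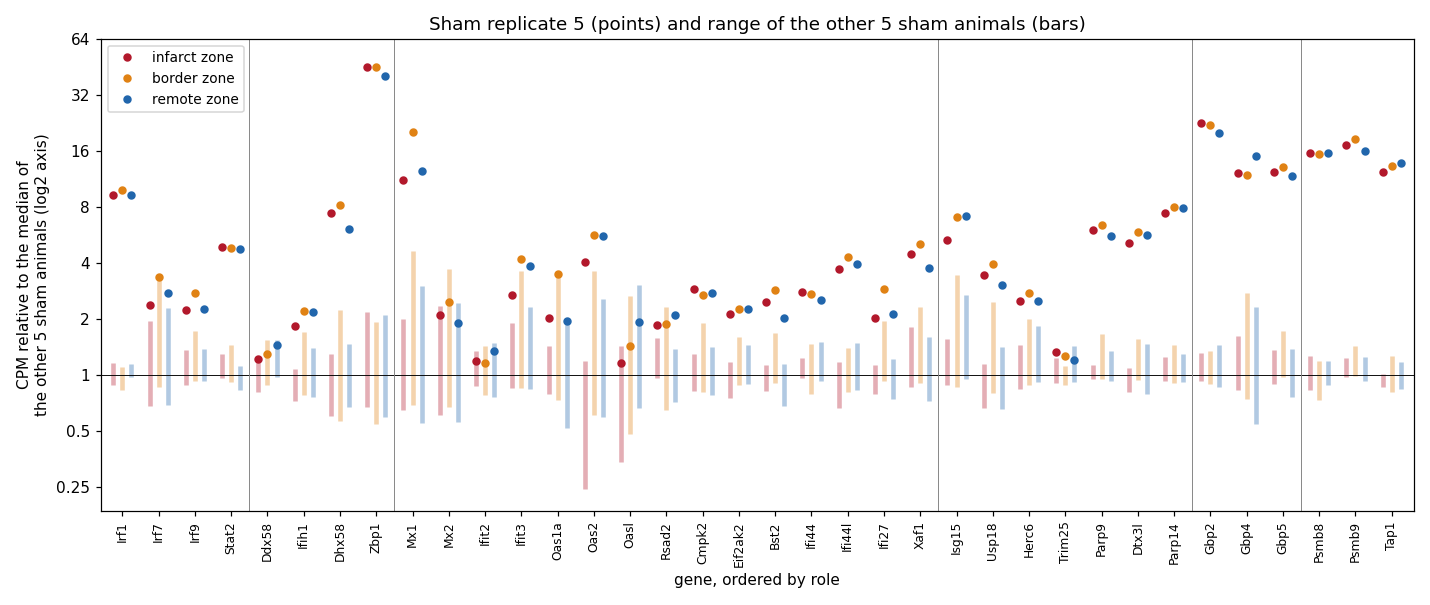
Level of 36 members (Ifit1 left out) in sham replicate 5 (points) relative to the median of the other 5 sham animals, on a log2 axis, with bars for the range of those 5 animals, in each zone. Points of Gbp2, Zbp1 and the antigen-processing genes lie far above the bars, and those of most antiviral effectors lie nearer to them.

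Ligands and cell markers of the same libraries moved with this. Ifng, which encodes interferon gamma, had 155, 211 and 95 counts in the infarct, border and remote libraries of sham replicate 5, at most 4 in any other sham library, at most 15 in any MI library and at most 7 in any MI+Cell Sheet library. None of the other ligand genes exceeded 8 counts in any library, and Ifna2, Ifna5, Ifnl1 and Ifnl3 had 0 counts in all 54, which allows at most 0.236 CPM (3 counts in the smallest library, counting error only). Summed over 10 macrophage markers, the infarct library of this animal held 13040 CPM against 478 to 923 CPM in the other sham animals, with 9 of the 10 genes above all of them. All 8 T cell markers were above the others as well (644 CPM against 48.6 to 83.5 CPM), although the strain is athymic, and so were all 7 markers of natural killer cells (516 CPM against 28.0 to 44.5 CPM). All 8 cardiomyocyte markers were below the others (19280 CPM against 51030 to 63800 CPM). The part of these cells in the members' levels was not tested. In bulk tissue, more cells of a type and more RNA per cell cannot be told apart. Each comparison with sham animals is given with this animal and without it, the second as an alternative.

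**Figure D2:**
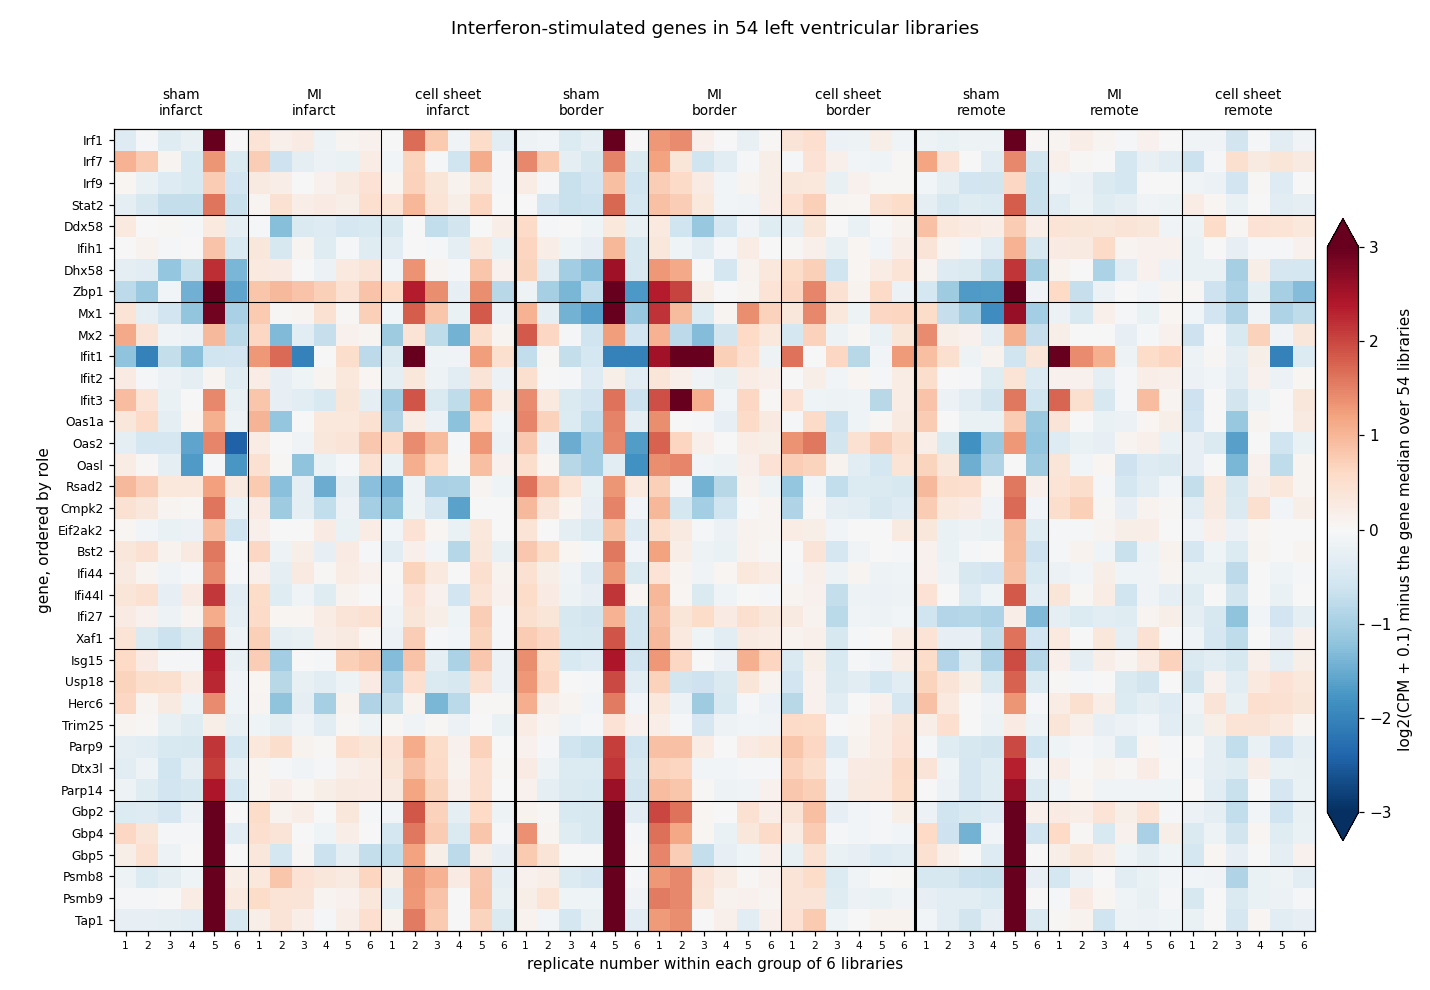
Levels of the 37 members in all 54 libraries as log2(CPM + 0.1) minus the gene's median over the 54 libraries, with colour from -3 to 3, genes ordered by role and libraries by zone and group. The columns of sham replicate 5 are the darkest in all 3 zones, and MI replicates 1 and 2 stand out in the border zone.

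The 4 transcription factors of the response had levels that overlapped between groups once all animals were included. Stat2, a factor of type I signalling, ranged from 28.7 to 144 CPM in sham animals (median 31.8), from 49.8 to 67.0 CPM in MI (median 55.0) and from 47.0 to 94.0 CPM in MI+Cell Sheet (median 63.1) in the infarct zone. Leaving aside sham replicate 5, the highest sham value was 38.6 CPM, below every library of both infarcted groups. In the border zone Stat2 ranged from 43.8 to 87.01 CPM in MI (median 56.3) and from 49.0 to 77.6 CPM in MI+Cell Sheet (median 65.7). The other 5 sham animals reached at most 47.3 CPM there, below every MI+Cell Sheet library but within the range of MI. How many of all genes were so separated from 5 sham animals was not computed. The remote zone showed smaller differences, 36.7 to 44.0 CPM in MI (median 40.6) and 37.2 to 55.6 CPM in MI+Cell Sheet (median 44.2), and both ranges overlapped that of the 5 sham animals (29.5 to 39.4 CPM).

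Irf9, the DNA-binding partner of Stat2, ranged from 28.7 to 72.8 CPM in sham infarct positions (median 34.95), from 43.0 to 57.6 CPM in MI (median 50.3) and from 42.0 to 68.8 CPM in MI+Cell Sheet (median 50.4). In the border zone its medians were 34.9, 49.5 and 45.6 CPM in the same order, and in the remote zone 31.9, 38.5 and 39.0 CPM. Irf9 was thus higher in both infarcted groups by its medians, with ranges that overlapped the sham animals in every zone. Irf1, an early target of interferon gamma, had medians of 40.4, 48.8 and 55.0 CPM in the infarct zone, with a highest value of 353 CPM in sham replicate 5 and of 141 CPM in MI+Cell Sheet replicate 2. Its medians were 40.6, 46.9 and 45.5 CPM in the border zone and 39.7, 46.7 and 40.9 CPM in the remote zone. Irf7, the amplifier of type I interferon production, had medians of 48.9, 30.8 and 34.1 CPM in the infarct zone, 44.9, 36.9 and 35.4 CPM in the border zone and 41.3, 32.7 and 42.5 CPM in the remote zone. Its ranges overlapped throughout, for example 25.5 to 88.8 CPM in sham and 22.8 to 58.7 CPM in MI infarct zones.

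**Figure D3:**
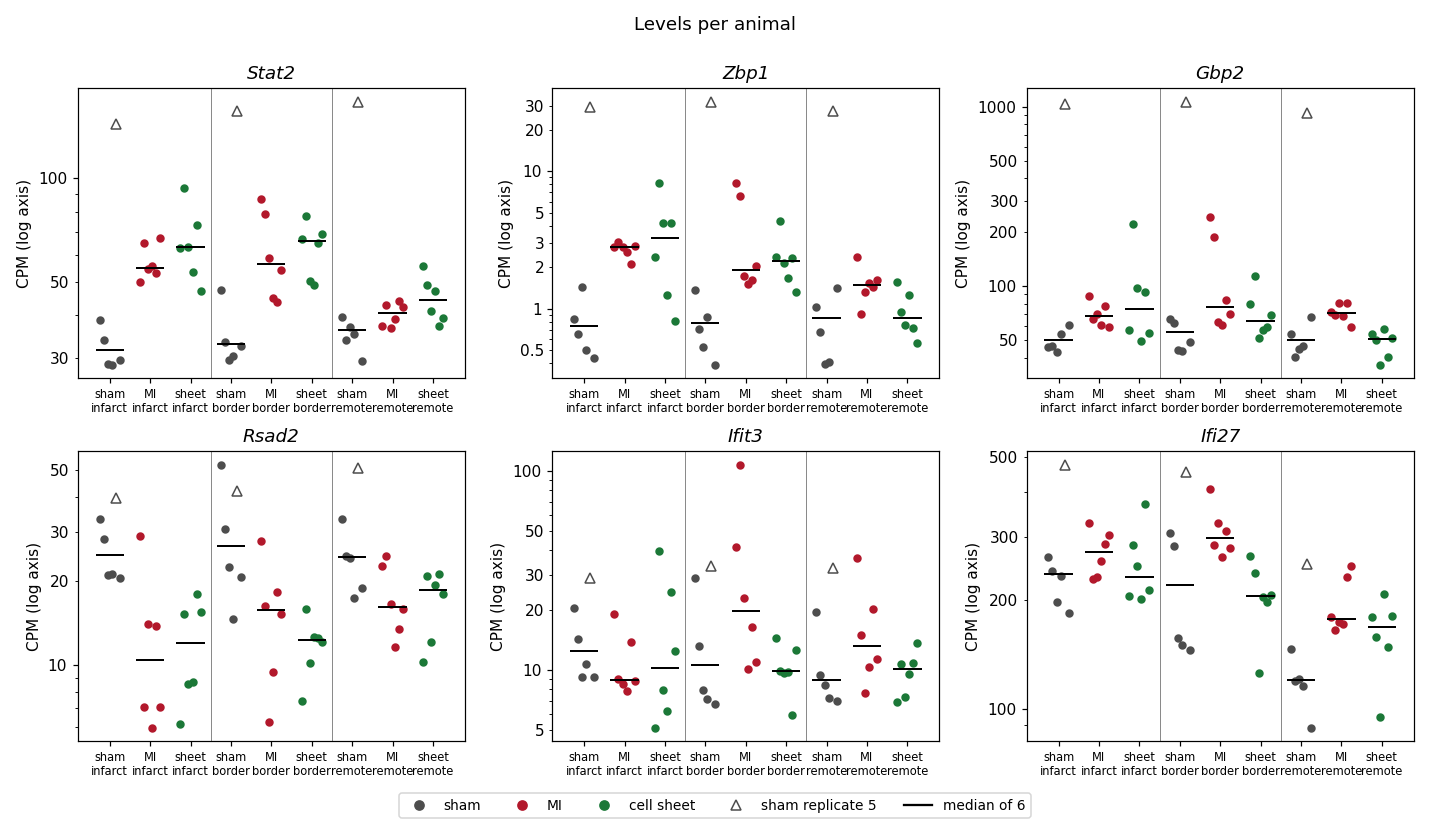
CPM on a log axis of Stat2, Zbp1, Gbp2, Rsad2, Ifit3 and Ifi27 in each animal of the 9 groups, with a line at the median of 6 and a triangle for sham replicate 5 ("sheet" is MI+Cell Sheet). Without the triangles, Stat2 and Zbp1 lie above the sham animals in the MI infarct zone, and Rsad2 lies lower in most infarcted hearts.

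Untreated MI was compared with sham to see which members an infarct changed. In the infarct zone with all 6 sham animals, 6 of 36 members tested were lower in MI and 0 were higher, where 49.9% of all genes tested were called in either direction (22.7% higher, 27.2% lower). The share of members called was thus below that of all genes. With library size and no TMM none of the 6 was called lower (adjusted p at least 0.0602), and 1 member, Ifit2, was called higher (0.40, adjusted p = 0.029). The members' median log2 difference was -0.49, and that of all genes -0.02. The 6 comprised Gbp5, Rsad2, Usp18 (which removes ISG15 from proteins and damps the interferon receptor), Cmpk2 (a mitochondrial nucleotide kinase beside Rsad2 in the genome), Herc6 (an ISG15 ligase of rodents) and Ddx58.

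Rsad2 ranged from 20.5 to 39.7 CPM in sham (median 24.8) and from 5.95 to 29.2 CPM in MI (median 10.5). MI replicate 1, at 29.2 CPM, was the MI library that reached into the sham range. The log2 difference was -1.10 ± 0.38 (adjusted p = 0.0287), and the call was lost without any 1 of sham replicate 1 or MI replicates 2, 4 and 6 (adjusted p at most 0.0605).

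Usp18 ranged from 12.7 to 65.6 CPM in sham (median 19.4) and from 7.69 to 16.2 CPM in MI (median 12.03), and fell by 1.09 ± 0.37 (adjusted p = 0.0286). Cmpk2 ranged from 10.7 to 37.8 CPM in sham (median 14.3) and from 5.84 to 14.5 CPM in MI (median 8.74), and fell by 0.97 ± 0.34 (adjusted p = 0.0304). Herc6 ranged from 33.4 to 98.5 CPM in sham (median 42.1) and from 16.01 to 39.7 CPM in MI (median 24.95), and fell by 0.92 ± 0.32 (adjusted p = 0.0327). For all 3 the MI values lay mostly below the sham values while the ranges overlapped. Leaving out MI replicate 2 or 4 ended the call of each of them (highest adjusted p of 0.0619, 0.0658 and 0.0697), as did MI replicate 5 for Usp18, MI replicate 6 for Cmpk2 and sham replicates 1 and 5 and MI replicate 6 for Herc6.

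Gbp5 ranged from 17.8 to 244 CPM in sham (median 21.0) and reached at most 24.98 CPM in MI (median 14.9), with a log2 difference of -1.83 ± 0.69 (adjusted p = 0.042). The size of this difference rested on sham replicate 5: without it the log2 difference was -0.36 and the call was lost, as it also was without any 1 of MI replicates 2 to 6 (highest adjusted p of 0.13). Ddx58 ranged from 25.1 to 38.1 CPM in sham (median 31.2) and from 12.8 to 30.2 CPM in MI (median 22.7), and fell by 0.53 ± 0.18 (adjusted p = 0.0261).

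Without sham replicate 5, 13 of 36 members were higher and 4 were lower in the MI infarct zone, where 64.8% of all genes tested were called (34.1% higher, 30.7% lower). The members' median log2 difference was 0.22 and that of all genes 0.04. The count of calls remained below the share of all genes, while the direction of most calls differed from that with all 6 animals. When library size was used without TMM, the split was 20 higher and 0 lower. That scaling moved the median of all genes to 0.34 in this comparison and to between 0.17 and 0.38 in the comparisons of the infarct and border zones with sham, so the 4 lower calls hold relative to the TMM scaling.

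The 13 that rose included 3 of the 4 transcription factors, 2 sensors, 2 antiviral effectors, 3 members of the ISG15 and ADP-ribose system, Gbp2, Psmb8 and Tap1. Zbp1 rose by 1.80 ± 0.30 (adjusted p = 0.000314), from 0.442 to 1.43 CPM in the 5 sham animals (median 0.655) to 2.13 to 3.08 CPM in MI (median 2.82). Oas2, which makes the messenger that activates RNase L, rose by 1.20 ± 0.35 (adjusted p = 0.00915), from 0.707 to 3.46 CPM (median 2.91) to 3.92 to 7.47 CPM (median 5.14). Both were above every one of the 5 sham animals in all 6 MI animals. With all 6 sham animals 14.1% of all genes tested, and 0 of 36 members, did not overlap in this zone. The share of all genes with 5 sham animals was not computed.

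Dhx58 (LGP2, a regulator of RIG-I-like sensors) rose by 0.89 ± 0.21 (adjusted p = 0.00299), from 3.36 to 7.23 CPM (median 5.55) to 7.79 to 11.7 CPM (median 10.6). Stat2 rose by 0.85 ± 0.11 (adjusted p = 7.38e-05). Mx1, a dynamin-like GTPase that blocks virus particles, rose by 0.80 ± 0.28 (adjusted p = 0.0232), from 6.33 to 19.5 CPM (median 9.71) to 14.9 to 25.1 CPM (median 17.7). The MI animals lay above the 5 sham animals for Dhx58 and Stat2, and overlapped them for Mx1. The calls of Zbp1, Oas2, Dhx58 and Stat2 held in all 11 fits that each left out 1 further library, and that of Mx1 was lost without sham replicate 3, 4 or 6 (adjusted p at most 0.0592). The remaining 8, with log2 differences of 0.35 to 0.73, were Parp9, Psmb8, Parp14, Tap1, Irf9, Gbp2, Dtx3l and Irf1.

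Rsad2 (-0.96 ± 0.38, adjusted p = 0.0412), Cmpk2 (-0.60 ± 0.24, adjusted p = 0.0454), Usp18 (-0.55 ± 0.19, adjusted p = 0.0222) and Ddx58 (-0.48 ± 0.18, adjusted p = 0.0347) were lower without sham replicate 5 as well. These 4 calls were weakly held. Leaving out 1 further library ended the call of Rsad2 in 10 of 11 fits (all but that without MI replicate 1), of Cmpk2 in 8 (sham replicates 1 to 4 and MI replicates 2, 3, 4 and 6), of Ddx58 in 7 (sham replicates 1 to 4 and MI replicates 3, 5 and 6) and of Usp18 in 2 (sham replicates 1 and 2), with adjusted p at most 0.0987, 0.108, 0.0926 and 0.0608.

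**Figure D4:**
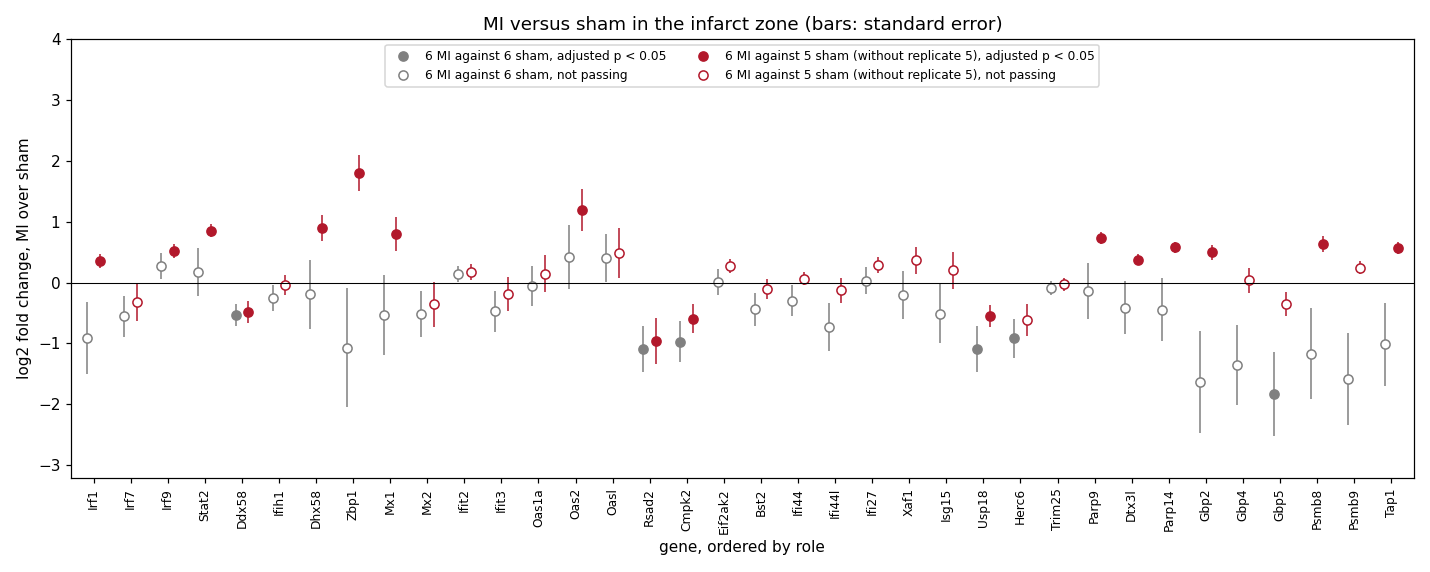
Log2 fold change ± SE of 36 members in MI versus sham in the infarct zone, with 6 sham animals and with 5 (without sham replicate 5), filled where the adjusted p is below 0.05. Zbp1, Gbp2 and the antigen-processing genes move most between both fits, and Rsad2, Cmpk2, Usp18 and Ddx58 are lower in both.

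Macrophage and muscle markers moved in the same comparison. Without sham replicate 5, all 10 macrophage markers and 6 of 8 T cell markers rose and all 8 cardiomyocyte markers fell in the MI infarct zone. Summed macrophage levels were 2834 to 11890 CPM in MI. Fibroblast sums were 6521 to 16960 CPM in MI and 2311 to 3428 CPM in the other sham animals. Endothelial sums (694.6 to 1274 CPM against 1162 to 1355 CPM) overlapped. So did those of natural killer cells (23.3 to 42.6 CPM against 28.0 to 44.5 CPM). Their part in the members' differences was not tested.

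In the border zone with all 6 sham animals, 0 of 36 members were called by edgeR, where 41.7% of all genes tested were called (18.4% higher, 23.2% lower). At an unadjusted p below 0.05 there were 3, DESeq2 called 1 higher and 2 lower, and library size without TMM called Oasl higher (1.29, adjusted p = 0.033). DESeq2 gave no adjusted p to 4 members here. The smallest p-values were those of Rsad2 (-0.98 ± 0.38, adjusted p = 0.053), Herc6 (-0.83 ± 0.32, adjusted p = 0.0536) and Oasl, a 2'-5' oligoadenylate synthetase-like protein (1.09 ± 0.43, adjusted p = 0.0585), none of which passed. Rsad2 ranged from 14.6 to 52.5 CPM in sham (median 26.7) and from 6.27 to 27.9 CPM in MI (median 15.8). Herc6 ranged from 34.9 to 109 CPM in sham (median 41.0) and from 17.5 to 46.0 CPM in MI (median 32.5), and Oasl from 1.17 to 6.40 CPM (median 2.95) and from 3.91 to 12.2 CPM (median 5.41). All 3 ranges overlapped. Each of the 3 was called in some fits that left out 1 library, at best Rsad2 without MI replicate 1 or sham replicate 4 (lowest adjusted p of 0.0224), Oasl without sham replicate 1 or MI replicate 4 (0.0308) and Herc6 without MI replicate 1 or sham replicate 4 or 6 (0.04).

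Without sham replicate 5, 10 of 36 members rose in the MI border zone and 0 fell, where 60.8% of all genes tested were called (31.9% higher, 28.9% lower). The count depended on single animals and on scaling: 18 rose without sham replicate 1 as well, 6 were called without sham replicate 3 or 4 as well (for replicate 4, 5 higher and 1 lower), and 19 rose with library size and no TMM. The 5 with the largest rise were Zbp1, Gbp2, Stat2, Psmb8 and Tap1. Zbp1 rose by 2.21 ± 0.57 (adjusted p = 0.00567), from 0.391 to 1.37 CPM in the 5 sham animals to 1.51 to 8.19 CPM in MI (median 1.90). No MI animal overlapped the 5 sham animals for Zbp1, with MI replicates 1 and 2 far above the rest at 8.19 and 6.58 CPM. With all 6 sham animals 11.5% of all genes tested did not overlap in this zone, and the share with 5 was not computed. Gbp2 rose by 1.16 ± 0.38 (adjusted p = 0.0193), from 43.6 to 65.8 CPM (median 48.7) to 60.6 to 243 CPM (median 76.7), and Stat2 by 0.82 ± 0.20 (adjusted p = 0.00399). The calls of these 3 held in every fit that left out 1 further library.

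Psmb8 rose by 0.81 ± 0.28 (adjusted p = 0.0261), from 23.6 to 38.4 CPM in the 5 sham animals (median 32.3) to 34.2 to 90.4 CPM in MI (median 41.4). Tap1 rose by 0.80 ± 0.31 (adjusted p = 0.0396), from 31.6 to 49.4 CPM (median 38.8) to 36.7 to 119 CPM (median 50.6). Both groups overlapped for either gene. These 2 calls were lost without MI replicate 1, without MI replicate 2 and without sham replicate 3 or 4, that of Tap1 also without sham replicate 2 or 6 (adjusted p at most 0.0663 for Psmb8 and 0.091 for Tap1). Parp9, Irf1, Parp14, Irf9 and Ifi27 made up the 10. Of the 13 members that rose in the infarct zone, 9 (69.2%) also rose in the border zone, which is 90% of the border zone's list. Both zones come from the same hearts, so the lists are not independent. Of all genes tested, 34.1% and 31.9% were higher in the infarct and border zones, and their overlap was not computed. Cell markers moved in the border zone too: all 10 macrophage markers and 6 of 7 T cell markers tested rose and all 8 cardiomyocyte markers fell without sham replicate 5. Summed macrophage levels were 3032 to 9093 CPM in MI and 398.5 to 798 CPM in the 5 sham animals. Summed fibroblast levels were 6563 to 19620 CPM and 2207 to 3107 CPM in the same order. Their part in the members' differences was not tested.

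MI replicates 1 and 2 were the 2 highest libraries of the border zone for 23 of the 37 members, with mean log2 levels of 5.55 and 5.12 against 4.27 to 4.62 in the other 4. MI replicate 1 was the highest of the 6 for 30 members. Ifng counts were 4 and 15 in these 2 libraries and at most 2 in the others. In the infarct zone no pair of MI animals led more than 9 members, and the 6 mean log2 levels ran from 4.25 to 4.84. The remaining sham animals were uneven as well. Sham replicates 1 and 2 were the highest of those 5 for 26 of the 37 members in the infarct position, 32 in the border position and 24 in the remote position. Their mean log2 levels in the border position were 5.05 and 4.56 against 3.92 to 4.02 in the other 3. With the sheet, replicates 1 and 2 led 17 members in the border zone. How often these pairs led among all genes was not computed.

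The remote zone, in the septum away from the ligated artery, gave 0 calls among 36 members by edgeR with all 6 sham animals, where 25.8% of all genes tested were called (11.7% higher, 14.2% lower). There were 4 at an unadjusted p below 0.05, and DESeq2 called 1 (lower) but gave no adjusted p to 13 members. Rsad2 (-0.70 ± 0.27, adjusted p = 0.0755), Gbp5 (-1.48 ± 0.65, adjusted p = 0.111) and Irf7 (-0.70 ± 0.32, adjusted p = 0.121) had the smallest p-values and did not pass. Without sham replicate 5 these log2 differences were -0.44, -0.02 and -0.41. Rsad2 ranged from 17.4 to 50.9 CPM in sham (median 24.4) and from 11.6 to 24.7 CPM in MI (median 16.2), and among the fits that left out 1 library was called in that without MI replicate 2 (adjusted p = 0.0484). Gbp5 ranged from 15.1 to 232 CPM in sham (median 20.8) and from 16.1 to 25.2 CPM in MI (median 20.1). The groups overlapped for these members.

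When sham replicate 5 was left out, 5 members rose in the MI remote zone and 0 fell, where 46.5% of all genes tested were called (23.7% higher, 22.8% lower). The count depended on the setting: 14 rose without sham replicate 1 as well, 2 without sham replicate 2, 3 or 4, 3 without MI replicate 3, 5 or 6, 9 with DESeq2 and 17 with library size and no TMM. All 10 macrophage markers rose and all 8 cardiomyocyte markers fell in the same comparison. Summed fibroblast levels were 3044 to 10210 CPM in MI and 1835 to 2310 CPM in the 5 sham animals. The part of these cell types was not tested. Ifi27, a small protein of mitochondrial and nuclear membranes, rose by 0.73 ± 0.14 (adjusted p = 0.000569), from 88.6 to 146 CPM in the 5 sham animals (median 120) to 166 to 249.1 CPM in MI (median 177), with no overlap. Gbp2 rose by 0.51 ± 0.13 (adjusted p = 0.00432), from 40.3 to 67.5 CPM (median 46.6) to 59.5 to 81.0 CPM (median 70.6), with overlap. Both calls held in all 11 fits that left out 1 further library. With all 6 sham animals 8.24% of all genes tested did not overlap in this zone, and the share with 5 was not computed. Psmb8 rose by 0.30 ± 0.11 (adjusted p = 0.0383), from 20.9 to 28.1 CPM (median 23.8) to 23.3 to 33.4 CPM (median 29.3).

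Parp9, an ADP-ribosyltransferase partner of the ubiquitin ligase Dtx3l, rose by 0.30 ± 0.11 (adjusted p = 0.0387), from 35.7 to 51.6 CPM (median 38.3) to 39.5 to 56.1 CPM (median 50.7). Irf1 rose by 0.20 ± 0.08 (adjusted p = 0.0426), from 38.6 to 45.2 CPM (median 39.7) to 42.1 to 50.3 CPM (median 46.7). The rises of Psmb8, Parp9 and Irf1 were under 1.25-fold, overlapped between groups, and were lost in 8, 8 and 7 of 11 fits that left out 1 further library. All 3 were lost without sham replicate 2, 3 or 4 or MI replicate 2, 3 or 5, Psmb8 and Irf1 without sham replicate 1, Parp9 without sham replicate 6, and Psmb8 and Parp9 without MI replicate 6 (highest adjusted p of 0.104). Gbp2, Irf1, Parp9 and Psmb8 were the members called in all 3 zones without sham replicate 5, and the zones come from the same hearts.

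The difference between zones was tested in a single model with the animal as a block, so that each animal's own level, that of sham replicate 5 included, was taken out. MI versus sham differed between the infarct and remote zones for 9 of 36 members, 7 more positive and 2 more negative in the infarct zone, where 28.9% of all genes tested were called (13.6% more positive, 15.3% more negative). Stat2 gave 0.67 ± 0.10 (adjusted p = 0.00101), Dhx58 0.58 ± 0.20 (adjusted p = 0.0405) and Tap1 0.42 ± 0.13 (adjusted p = 0.0294). Parp9 gave 0.41 ± 0.09 (adjusted p = 0.00538) and Parp14, another ADP-ribosyltransferase, 0.40 ± 0.09 (adjusted p = 0.00481). Psmb8 and Irf9 were the other 2, at 0.35 and 0.31. Differences of MI from sham were thus more positive in the infarct zone than in the remote zone for these 7.

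Ifit3, which stabilises the RNA-binding Ifit1, and Ifi27 went the other way. Ifit3 gave -0.73 ± 0.19 (adjusted p = 0.0136), with medians of 12.5 CPM in sham and 8.91 CPM in MI in the infarct zone and of 8.92 and 13.1 CPM in the remote zone. Ifi27 gave -0.43 ± 0.12 (adjusted p = 0.0169), with medians of 237 and 272 CPM in the infarct zone and of 120 and 177 CPM in the remote zone. In the same test on 5 sham animals 7 members were called, and Tap1 was not. Tap1 was also lost without sham replicate 1, 4 or 6 or MI replicate 3 or 6 (adjusted p at most 0.063), and Dhx58 without sham replicate 1, 3 or 6 or MI replicate 3 or 6 (at most 0.0904). Without the block no member was called. With library size and no TMM, Irf1 was called as well (0.28, adjusted p = 0.0375) and Ifi27 was not.

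No member was called by edgeR in the same test between border and remote zones, where 0% of all genes were called and 7 of 37 members had an unadjusted p below 0.05. Parp9 (0.47 ± 0.15, adjusted p = 0.0996), Stat2 (0.59 ± 0.19, adjusted p = 0.106) and Oasl (0.90 ± 0.30, adjusted p = 0.115) came nearest. For Parp9 the sham and MI medians were 43.6 and 65.4 CPM in the border zone and 40.0 and 50.7 CPM in the remote zone. DESeq2 was not run on the tests between zones.

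MI+Cell Sheet was compared with untreated MI to see whether the sheet changed any member, a comparison that sham replicate 5 does not enter. In the infarct zone 0 of 36 members were called by edgeR and by DESeq2, where 0% of all genes were called by edgeR, and 1 member had an unadjusted p below 0.05. Dtx3l had a log2 difference of 0.39 (95% interval 0.10 to 0.69, adjusted p = 0.501), with 40.5 to 50.5 CPM in MI (median 44.2) and 44.4 to 80.7 CPM in MI+Cell Sheet (median 59.2). Parp14 had 0.35 (-0.03 to 0.72, adjusted p = 0.633) and Oas2 0.50 (-0.13 to 1.12, adjusted p = 0.685). None passed, and the groups overlapped. The members' median difference was 0.18 with all genes at -0.01. MI+Cell Sheet replicates 2 and 5 were the 2 highest libraries of this zone for 25 of the 37 members, with mean log2 levels of 5.34 and 5.04 against 4.06 to 4.58 in the other 4. How often this pair led among all genes was not computed.

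In the border zone 1 of 37 members was higher and 2 were lower with the cell sheet, where 18.0% of all genes tested were called (8.47% higher, 9.48% lower). The members' median difference was -0.29 and that of all genes 0.00. Trim25, a ubiquitin ligase that switches on RIG-I, measured 27.6, 35.5, 36.7, 36.9, 38.1 and 45.3 CPM in the 6 MI animals and 39.7, 40.6, 46.1, 51.2, 57.6 and 58.8 CPM in the 6 MI+Cell Sheet animals. MI replicate 1, at 45.3 CPM, was the MI animal within the range of the treated ones. Trim25 rose by 0.44 ± 0.13 (adjusted p = 0.0379).

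Ifi27 measured 264, 279, 284, 311, 327 and 408 CPM in MI and 126, 198, 204, 207, 239 and 265 CPM in MI+Cell Sheet. The groups overlapped at the highest treated and lowest untreated animal. Ifi27 fell by 0.58 ± 0.17 (adjusted p = 0.0334). Ifit3 measured 10.1, 11.0, 16.4, 23.0, 41.5 and 107 CPM in MI and 5.97, 9.70, 9.83, 9.86, 12.6 and 14.4 CPM in MI+Cell Sheet, and fell by 1.74 ± 0.55 (adjusted p = 0.0454). MI replicates 1 and 2 held the values of 41.5 and 107 CPM, and the lowest MI values lay within the treated range. Without MI replicate 2 the log2 difference was -0.94 and did not pass. Its partner Ifit1 ranged from 0.271 to 8.08 CPM in MI and from 0.131 to 1.17 CPM with the sheet, with a difference that did not pass (-2.15 ± 0.81, adjusted p = 0.0858).

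None of the 3 calls held in every fit that left out 1 animal. Ifit3 was lost in 9 of 12 such fits (MI replicates 1 to 3 and all 6 MI+Cell Sheet replicates), Trim25 in 8 (MI replicates 3 to 6 and MI+Cell Sheet replicates 1, 2, 5 and 6) and Ifi27 in 6 (MI replicates 1, 3 and 5 and MI+Cell Sheet replicates 4 to 6), with adjusted p at most 0.102, 0.0866 and 0.0723. The library of MI+Cell Sheet replicate 1 held 451 CPM of the 8 cardiomyocyte markers together against 8237 to 23390 CPM in the other 5, and 1126 CPM of 6 adipocyte markers. With library size and no TMM, 1 member was higher and 0 were lower, and DESeq2 called 1 higher and 4 lower.

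In the remote zone 0 members were higher and 1, Gbp2, was lower with the cell sheet, where 17.1% of all genes tested were called (10.3% higher, 6.79% lower). Gbp2 ranged from 59.5 to 81.0 CPM in MI (median 70.6) and from 36.4 to 57.5 CPM in MI+Cell Sheet (median 51.0), with no overlap between the groups, as was so for 4.88% of all genes tested. The log2 difference was -0.58 ± 0.12 (95% interval -0.84 to -0.32, adjusted p = 0.0116), and it held in all 12 fits that left out 1 library. The call was lost with all 9 groups in a single fit, which includes sham replicate 5 (-0.57 ± 0.75, adjusted p = 0.648). In the remote zone the 5 sham animals other than replicate 5 ranged from 40.3 to 67.5 CPM (median 46.6). Summed macrophage markers ran from 1006 to 3338 CPM in MI and from 481 to 3324 CPM with the sheet (medians 2198 and 589), 2 of 10 such markers fell, and 2 of 8 cardiomyocyte markers rose. Their part in the Gbp2 difference was not tested.

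**Figure D5:**
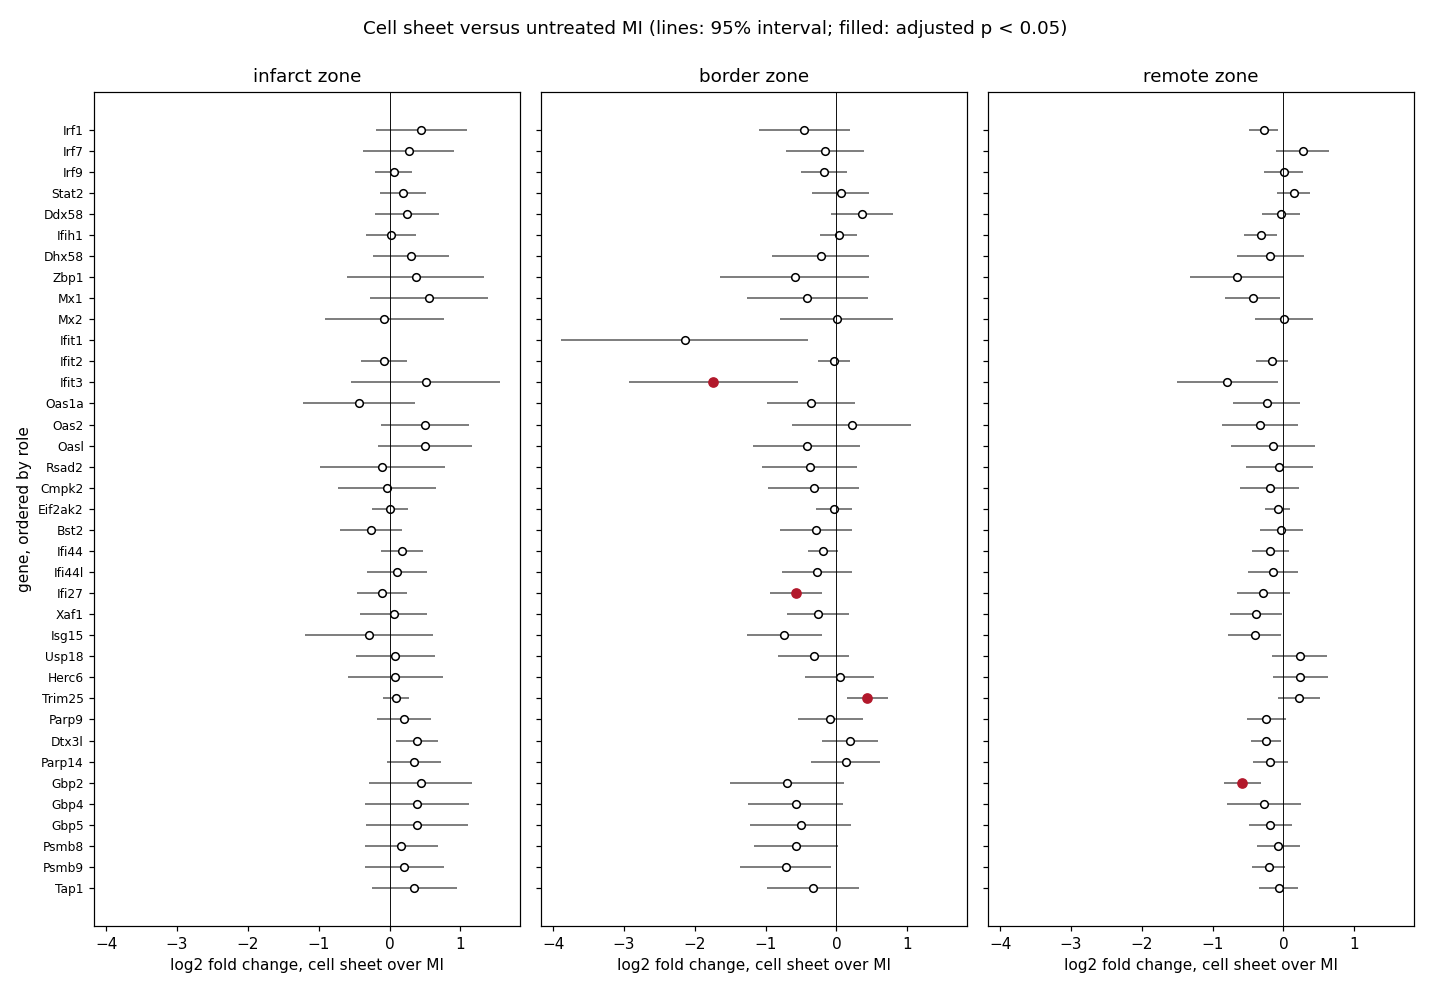
Log2 fold change with 95% interval of the members in MI+Cell Sheet versus MI in the 3 zones, with called members filled in red. Trim25, Ifi27 and Ifit3 are called in the border zone and Gbp2 in the remote zone, and no member is called in the infarct zone.

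The change with the cell sheet was not shown to differ between zones. Between border and infarct zones 0 of 37 members were called by edgeR and 2 had an unadjusted p below 0.05, and between border and remote zones 0 were called and 3 had an unadjusted p below 0.05, where 0% of all genes were called in both. Trim25 came nearest in the first (0.35 ± 0.16, adjusted p = 0.414), ahead of Ifi44 (-0.34 ± 0.15, adjusted p = 0.417), and Dtx3l (0.50 ± 0.19, adjusted p = 0.187), Ifih1 (the RNA sensor MDA5; 0.38 ± 0.16, adjusted p = 0.215) and Ddx58 (0.47 ± 0.21, adjusted p = 0.233) in the second.

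MI+Cell Sheet was also compared with sham, which shares its control animals with the comparison of MI and sham. In the infarct zone with 6 sham animals 0 of 36 members were higher and 4 were lower, where 57.9% of all genes tested were called (28.6% higher, 29.2% lower). Rsad2 ranged from 6.16 to 18.1 CPM with the sheet (median 11.96) and from 20.5 to 39.7 CPM in sham, with no overlap, as was so for 20.9% of all genes tested. Rsad2 fell by 1.17 ± 0.27 (adjusted p = 0.00357), and the call held in every fit that left out 1 library.

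Cmpk2 ranged from 3.97 to 12.3 CPM with the sheet (median 9.89) and fell by 0.96 ± 0.35 (adjusted p = 0.0315). Herc6 ranged from 14.3 to 39.7 CPM (median 30.3) and fell by 0.79 ± 0.31 (adjusted p = 0.042). Bst2 (tetherin, which holds budding viruses at the cell surface) ranged from 153 to 460 CPM in sham (median 189) and from 84.4 to 195 CPM with the sheet (median 138), and fell by 0.65 ± 0.26 (adjusted p = 0.0495). All 3 overlapped the sham animals and were lost without sham replicate 5, among 4, 6 and 9 of 12 fits that left out 1 library (highest adjusted p of 0.0664, 0.0871 and 0.101). MI+Cell Sheet replicates 1, 3 and 4 ended each of these calls when left out, sham replicate 1 those of Herc6 and Bst2, sham replicate 3 that of Herc6, and sham replicates 2 and 4 and MI+Cell Sheet replicates 2 and 6 that of Bst2. DESeq2 called 1 higher and 5 lower, and library size without TMM 1 higher (Oasl) and 1 lower (Rsad2, -0.93, adjusted p = 0.015). DESeq2 gave no adjusted p to 11 members here.

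With sham replicate 5 left out, 14 members were higher and 1 was lower, where 70.0% of all genes tested were called (36.4% higher, 33.6% lower). The 5 with the largest rise were Zbp1 (2.17 ± 0.59, adjusted p = 0.00685), Oas2 (1.69 ± 0.43, adjusted p = 0.00442), Mx1 (1.35 ± 0.47, adjusted p = 0.0242), Dhx58 (1.18 ± 0.32, adjusted p = 0.0065) and Stat2 (1.03 ± 0.17, adjusted p = 0.000302). Zbp1 ranged from 0.821 to 8.24 CPM with the sheet (median 3.27), Oas2 from 3.75 to 11.4 CPM (median 7.23), Mx1 from 12.7 to 52.1 CPM (median 19.9) and Dhx58 from 8.29 to 22.7 CPM (median 9.58). Oas2, Dhx58 and Stat2 lay above all 5 sham animals, while Zbp1 and Mx1 overlapped them. With all 6 sham animals 20.9% of all genes tested did not overlap in this zone, and the share with 5 was not computed. The call of Mx1 was lost without sham replicate 3, 4 or 6 or MI+Cell Sheet replicate 2 or 5 (adjusted p at most 0.0589). Rsad2 was the lower one, at -1.07 ± 0.27 (adjusted p = 0.00457).

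The border zone with 6 sham animals gave 0 higher and 5 lower members, where 43.6% of all genes tested were called (20.4% higher, 23.2% lower). Gbp5 ranged from 15.1 to 27.2 CPM with the sheet (median 16.8) and from 19.5 to 263 CPM in sham (median 23.0), with a difference of -1.80 ± 0.67 (adjusted p = 0.0448). Rsad2 ranged from 7.46 to 15.9 CPM with the sheet (median 12.3) and fell by 1.38 ± 0.30 (adjusted p = 0.00305). Usp18 ranged from 9.13 to 14.9 CPM with the sheet (median 10.5) and from 10.9 to 53.9 CPM in sham (median 17.4), and fell by 1.17 ± 0.36 (adjusted p = 0.021). The treated animals were low in all 3 and overlapped the sham animals.

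Cmpk2 ranged from 6.52 to 12.6 CPM with the sheet (median 9.59) and fell by 0.94 ± 0.29 (adjusted p = 0.0205), and Herc6 from 20.8 to 40.8 CPM (median 33.0), falling by 0.80 ± 0.31 (adjusted p = 0.0496). Gbp5 and Herc6 lost their calls without sham replicate 5 and without any 1 of the 6 MI+Cell Sheet animals, Herc6 also without sham replicate 1 or 2 (adjusted p at most 0.0846 and 0.105). The size of the Gbp5 difference rested on sham replicate 5, without which it was -0.42. Library size without TMM gave 1 higher (Trim25) and 1 lower (Rsad2, -1.12, adjusted p = 0.01).

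Against the other 5 sham animals the border zone had 7 higher and 3 lower members, where 61.6% of all genes tested were called (32.9% higher, 28.7% lower), and library size without TMM gave 16 higher and 1 lower. Zbp1 (1.59 ± 0.39, adjusted p = 0.00409), Oas2 (1.24 ± 0.50, adjusted p = 0.0493), Stat2 (0.84 ± 0.16, adjusted p = 0.00089), Parp14 (0.73 ± 0.19, adjusted p = 0.00541) and Parp9 (0.66 ± 0.23, adjusted p = 0.0237) rose the most, and Dtx3l and Tap1 made up the 7. Zbp1 ranged from 1.33 to 4.37 CPM with the sheet (median 2.23), Oas2 from 2.86 to 12.8 CPM (median 6.61), Parp14 from 71.8 to 144 CPM (median 110) and Parp9 from 41.2 to 96.6 CPM (median 68.1). Stat2 lay above the 5 sham animals, and these 4 overlapped them.

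Rsad2 (-1.28 ± 0.30, adjusted p = 0.00335), Usp18 (-0.79 ± 0.27, adjusted p = 0.0255) and Cmpk2 (-0.67 ± 0.23, adjusted p = 0.0239) were lower in the border zone without sham replicate 5. The calls of Zbp1, Stat2, Parp14 and Rsad2 held in all 11 fits that left out 1 further library. That of Oas2 was lost in 9 (sham replicates 2, 3, 4 and 6 and MI+Cell Sheet replicates 1, 2, 4, 5 and 6), of Parp9 in 3 (sham replicates 3, 4 and 6), of Usp18 in 3 (sham replicates 1 and 2 and MI+Cell Sheet replicate 5) and of Cmpk2 in 1 (sham replicate 1), with adjusted p at most 0.109, 0.0614, 0.0728 and 0.0686.

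The remote zone gave 0 calls by edgeR and by DESeq2 for MI+Cell Sheet versus sham, both with 6 sham animals (0.00660% of all genes called) and with 5 (0.111%). At an unadjusted p below 0.05 there were 7 and 3 members. With 6 sham animals DESeq2 gave no adjusted p to 13 members, Gbp2 and Gbp5 among them, so its 0 does not cover those. With 6 sham animals Rsad2 (-0.77 ± 0.28, adjusted p = 0.413), Gbp2 (-2.08 ± 0.82, adjusted p = 0.441) and Gbp5 (-1.68 ± 0.67, adjusted p = 0.456) came nearest, and without sham replicate 5 the Gbp2 and Gbp5 differences were -0.07 and -0.20. With 5 sham animals the nearest were Stat2 (0.36 ± 0.12, adjusted p = 0.243), Ifi27 (0.45 ± 0.19, adjusted p = 0.299) and Rsad2 (-0.49 ± 0.22, adjusted p = 0.315). Rsad2 ranged from 10.3 to 21.2 CPM with the sheet in this zone (median 18.7) and Ifi27 from 94.99 to 209 CPM (median 169), both overlapping the sham animals.

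On the TMM scaling the antiviral effectors Ifit2, Eif2ak2 (the kinase PKR), Oas1a, Ifi44l, Ifi44, Xaf1, Mx2 and, where tested, Ifit1 were called in none of the 9 comparisons within a zone, with or without sham replicate 5. The sensor Ifih1 was called in none of them either, nor were Irf7, Gbp4, Psmb9 and Isg15 (the ubiquitin-like protein that Herc6 attaches). With library size and no TMM, Ifit2, Eif2ak2, Ifi44, Xaf1, Psmb9, Ifih1 and Isg15 were each called in some comparison. Isg15 had medians of 12.3, 15.1 and 9.69 CPM in sham, MI and MI+Cell Sheet infarct zones, 12.7, 17.7 and 10.8 CPM in border zones and 7.34, 12.9 and 9.20 CPM in remote zones. Its ranges overlapped in each zone.

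Other genes of the interferon pathway were read from fixed lists. In MI versus sham in the infarct zone, 4 of 6 receptor genes rose and 0 fell, 4 of 22 signalling genes rose and 1 fell, and of 40 further interferon-responsive genes 3 rose and 6 fell, where 22.7% of all genes tested were higher and 27.2% lower. Without sham replicate 5 the counts were 5 and 0, 16 and 1, and 17 and 5, where 34.1% of all genes were higher and 30.7% lower. In that second comparison Ifngr1, a chain of the interferon gamma receptor, rose by 1.13 ± 0.15 (adjusted p = 0.0001), Jak2 by 1.22 ± 0.10 (adjusted p = 1.4e-05) and Irf8, a factor of myeloid cells, by 1.96 ± 0.24 (adjusted p = 5.9e-05). Gbp1 (-1.75 ± 0.51, adjusted p = 0.00955) and Mavs, the mitochondrial adaptor of RIG-I (-1.29 ± 0.20, adjusted p = 0.000198), fell.

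With the cell sheet against MI, 0 of 6 receptor genes rose and 1 fell in the border zone, 0 of 22 signalling genes rose and 2 fell, and of the 40 further genes 1 rose and 4 fell, where 8.47% of all genes tested were higher and 9.48% lower. The further genes had 2 to 8 calls when 1 animal was left out (8 without MI+Cell Sheet replicate 1). Ifngr1 ranged from 141 to 213 CPM in MI border zones (median 176) and from 88.1 to 150 CPM with the sheet (median 115), and fell by 0.56 ± 0.13 (adjusted p = 0.0123). Psme2, a proteasome activator of antigen processing, fell by 0.75 ± 0.17 (adjusted p = 0.0101). In the remote zone the counts were 0 and 2, 3 and 5, and 2 and 7, where 10.3% of all genes tested were higher and 6.79% lower. Leaving out 1 animal gave 3 to 20 calls among the receptor and signalling genes together and 4 to 18 among the further genes, the highest without MI+Cell Sheet replicate 1 in both cases. Ifngr1 ranged there from 134 to 166 CPM in MI (median 140) and from 79.5 to 148 CPM with the sheet (median 87.2), and fell by 0.58 ± 0.16 (adjusted p = 0.0271). The ranges of Ifngr1 overlapped in both zones. In the infarct zone 0 genes of these lists were called by edgeR, with 5 at an unadjusted p below 0.05 by edgeR.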

How the data were processed

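PolyA RNA of snap-frozen left ventricle was sequenced by the authors, aligned with STAR and, per the labels, counted on the rat build mRatBN7.2. The deposited values are whole-number read counts per gene and library, with no normalization, and the authors tested them with DESeq2. The counter, its strand setting and the treatment of human reads were not given in the sources used here. The 5 summary lines of each table, 17.0 to 42.8% of its counts, were left out. Their share differed between groups. In the infarct zone it was 17.7 to 30.9% in MI and 17.0 to 27.5% in MI+Cell Sheet. It was 28.2% in sham replicate 5 and 35 to 42.8% in the other sham animals there. The part of this share in the calls was not tested. The remaining total was 12699204 to 23397754 counts per library.

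Libraries were grouped by treatment and zone. Each comparison was fitted on its own groups with edgeR 4.0.16 (quasi-likelihood test, filterByExpr, TMM) in R 4.3.3 with limma 3.58.1, and p-values were adjusted by Benjamini-Hochberg over all genes tested. Differences between zones were fitted as a treatment-by-zone interaction, blocked on the animal. Intervals of 95% used t quantiles on the degrees of freedom of the test. CPM used TMM factors over 54 libraries, and log2 levels an offset of 0.1. The script was tested on simulated data. Sham replicate 5 was left out in an alternative chosen after its values were seen. Other alternatives were DESeq2 1.42.0, no filter, a minimum of 10 counts in each library, scaling to library size alone, all 9 groups together, the replicate number as a block and each animal left out in turn.

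The members and gene lists were chosen with earlier results of these data known. Named with values are the 4 transcription factors and, in each comparison, up to 5 called members that rose most and 5 that fell most, or the 3 with the smallest p where none was called. Genes of the fixed pathway lists were named as examples after their values were seen. Replicate numbers belong to different animals in each group and were not used to pair them in the main tests.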

Additional observations from a re-analysis of the deposited data

Results flagged for a closer look

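In groups of 6 animals the highest or lowest value was set aside where its gap to the nearest other animal, divided by the range of the group, passed Dixon's 95% critical value on the log2 scale. Chance gives this in about 1 in 20 groups, and it was so in 39 of the 153 groups examined (those whose values the report gives, with the sham groups of the same members in all zones), and in 60 of all 333. Of the 39, 35 were libraries of sham replicate 5, described at the start of the report. The share of such groups among genes outside the members was not computed.

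Sham replicate 5 stood apart in this way in the infarct, border and remote positions for Irf1 (353, 392 and 366 CPM), Stat2 (144, 157 and 167 CPM), Zbp1 (29.5, 32.1 and 27.5 CPM), Parp9 (237, 229 and 214 CPM), Dtx3l (182.5, 193 and 219 CPM), Parp14 (435, 485 and 496 CPM), Gbp2 (1043, 1072 and 929.6 CPM), Gbp5 (244, 263 and 232 CPM), Psmb8 (472, 496 and 372 CPM) and Tap1 (464, 516 and 505 CPM). It did so in the infarct and remote positions for Dhx58 (41.3 and 39.6 CPM) and in the infarct position for Cmpk2 (37.8 CPM), Bst2 (459.5 CPM) and Usp18 (65.6 CPM). The mean log2 level of all members in this animal passed the same limit in the infarct (6.27) and remote (6.19) positions.

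The other 4 were single values of infarcted animals. Ddx58 was low in the infarct zone of MI replicate 2 (12.8 CPM) and Parp9 was low in the remote zone of MI replicate 4 (39.5 CPM). Usp18 (14.9 CPM) and Gbp5 (27.2 CPM) were high in the border zone of MI+Cell Sheet replicate 2.

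The difference of MI from sham was not the same in the infarct and remote zones for 9 of 36 members, by the interaction test with the animal as a block. Of all genes tested, 28.9% were called by this test. On the log2 scale the difference was more positive in the infarct zone for Stat2 (0.67, or 0.665 before rounding), Dhx58 (0.58), Tap1 (0.42), Parp9 (0.41), Parp14 (0.40), Psmb8 (0.35) and Irf9 (0.31), and more negative for Ifi27 (-0.43) and Ifit3 (-0.73). The calls of Tap1 and Dhx58 were lost in 6 and 5 of 12 fits that left out 1 animal. These libraries also differed in their cell markers: on the same test 4 of 8 cardiomyocyte markers were more negative and 2 of 8 T cell markers more positive in the infarct zone. Whether these markers bear on the members' differences was not tested.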

How the results depend on the processing

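The number of members called in the comparisons with sham depended on sham replicate 5 and, once it was left out, on scaling and on single further animals. Leaving out 1 animal at a time gave 1 to 17 called members in MI versus sham in the infarct zone, 0 to 10 in the border zone and 0 to 5 in the remote zone, with the highest count in each case without sham replicate 5. For MI+Cell Sheet versus sham it gave 1 to 15, 3 to 10 and 0 to 0, and for MI+Cell Sheet versus MI 0 to 0, 0 to 3 and 1 to 7, the 7 without MI+Cell Sheet replicate 1. With sham replicate 5 left out throughout, MI versus sham gave 13 to 19, 6 to 18 (18 without sham replicate 1) and 2 to 14 (14 without sham replicate 1), and MI+Cell Sheet versus sham 11 to 16, 7 to 14 and 0 to 0. The tests between zones gave 6 to 13 for infarct against remote, 0 to 3 for border against remote (3 without MI replicate 5), and 0 to 0 for both tests of the sheet.

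Counts of called members that moved by over 1.5 times under other settings were as follows. DESeq2 gave 3 in the border and 1 in the remote zone for MI versus sham, 9 in the remote zone without sham replicate 5, and 5 and 3 in the border and remote zones for MI+Cell Sheet versus MI. DESeq2 gave no adjusted p to between 4 and 14 members in the comparisons with all 6 sham animals, and they are not counted. Without a filter the border zone gave 1, 0 and 3 for MI versus sham, MI+Cell Sheet versus MI and MI+Cell Sheet versus sham. At least 10 counts in every library gave 3 for MI+Cell Sheet versus MI in the remote zone. Library size without TMM gave 1 and 1 for MI versus sham in the infarct and border zones (both higher, against 6 lower with TMM in the first), 19 and 17 in the border and remote zones without sham replicate 5, 1 and 2 for MI+Cell Sheet versus MI in the border and remote zones, 2 and 2 for MI+Cell Sheet versus sham in the infarct and border zones, and 17 in the border zone without sham replicate 5. All 9 groups in a single fit gave 5 for MI versus sham in the border zone, 8 and 8 for MI+Cell Sheet versus sham in the infarct and border zones, and 0 for MI+Cell Sheet versus MI in the remote zone. The cause of these shifts was not tested.

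The replicate block gave 4 and 1 for MI versus sham in the border and remote zones, 1 and 0 for MI+Cell Sheet versus MI in the border and remote zones, and 7 and 1 for MI+Cell Sheet versus sham in the infarct and border zones, and moved no other count by over 1.5 times. Over all genes that passed the filter, animals with the same number did not deviate together. The correlation passed 0.1 in 1 to 2 of 6 pairs per comparison. Per comparison, 0 to 2 of 6 libraries correlated best with their own number. In the border zone replicates 1 and 2 were highest for 32 (sham, without replicate 5), 23 (MI) and 17 (MI+Cell Sheet) of the 37 members. In the infarct and remote zones the leading pair differed between groups. Whether the members vary together by replicate number was not tested. Without the replicate block of the animal, the test of MI versus sham between infarct and remote zones called 0 members.

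For single members no log2 difference that was called changed sign under any setting tried. DESeq2 kept the side of the threshold in 57 of 61 cases, library size without TMM in 51 of 73 and the replicate block in 18 of 30. Counts between 12699204 and 23397754 per library leave Ifit1 and Zbp1, at a few CPM or less, with the least precision.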
